A study of Homo sapiens with 2 samples.

Results

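Histone genes fall into a large family of replication-dependent genes, grouped in the HIST1 to HIST4 clusters, and a smaller family of variant genes that stand alone. The members were the probes whose gene symbol in the platform annotation is a histone name, 91 of 47323 probes. They stood for 78 of 20046 named genes, 70 clustered and 8 variant. A probe annotated to both H3C11 and H3C6 was dim on both arrays and was assigned to neither gene. A further 7 variant genes, H2AX, H2AJ, MACROH2A1, MACROH2A2, H2AB1, H2AB2 and H2AB3, had symbols outside the rule but older H2AF names inside it, and were set beside the 8 variants.

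Total RNA was hybridized to HumanHT-12v4 BeadChips, which read transcripts by fixed probes, and came from K562, a BCR/ABL-driven leukemia line. NilotinibR cells had been passaged in stepwise higher nilotinib, an inhibitor of that kinase, over 3 months and were cultured in 1 µM nilotinib. Parental cells were grown in parallel without drug. Each group was 1 culture on 1 array, so no difference has a replicate check, no p-value is given, and resistance cannot be told apart from the presence of drug or from differences between cultures. Of the K562 markers measured, the fetal and embryonic globin genes HBG1 and HBE1 had log2 levels of 14.17 and 14.10 in nilotinibR cells and 14.08 and 14.19 in parental cells. The erythroid factors TAL1 and LMO2 were 3.69-fold and 2.62-fold higher in nilotinibR cells, and GATA1 had a log2 difference of 0.14. Of 4 lymphoid markers 3 were measured, and CD3D was at 6.13 in nilotinibR and 9.90 in parental cells, at least 13-fold lower, while MS4A1 and CD79A were near background on both arrays, at 6.26 and 6.14 in nilotinibR and 6.22 and 6.25 in parental cells. Of 4 monocyte and granulocyte markers, CD14 was at 6.21 and LYZ at 6.55 in nilotinibR cells, and at 6.36 and 6.85 in parental cells, near the dim end of the arrays. Whether these have a part in the histone values was not tested.

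Clustered genes encode the canonical H2A, H2B, H3 and H4 of the nucleosome and most H1 linker histones, and they are transcribed in S phase as new DNA is packed. Their mRNAs lack introns and usually end in a conserved stem-loop instead of a poly(A) tail. SLBP binds the stem-loop, and U7 snRNP, which holds LSM10 and LSM11, directs the cleavage. Variant genes are expressed outside S phase as well and mostly give polyadenylated mRNAs, with replacement histones such as H3.3 and H2A.Z. The labelling reaction used for these arrays is primed on poly(A) tails, so for a clustered gene the array reads mainly the transcripts that carry one. More mRNA and a larger polyadenylated share of it cannot be told apart with these values.

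A probe counted as measured if it exceeded the background set by dim probes on either array, a deposited intensity of 119.5 on the nilotinibR and 120.8 on the parental array. By this rule 51 of the 70 clustered and 12 of the 15 variant genes were measured, 45 and 10 of them on both arrays. The deposited intensities still contain the background. Levels and folds below were taken after background correction with an offset of 50 and quantile normalization, on the log2 scale, so the folds of dim genes are understated. Levels of different probes are not comparable with each other, so no gene is ranked above another by its level. Levels serve only to set apart dim probes, whose folds are compressed.

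Among the 51 measured clustered histone genes, 18 (35.3%) were more than 1.5-fold higher in nilotinibR than in parental cells, none was more than 1.5-fold lower, and the rest passed in neither direction. For all 12951 genes measured, the share past 1.5-fold was 7.68% upward and 8.37% downward. The median log2 difference of clustered genes was 0.46, against 0.00 over all genes, with a range of -0.34 to 1.48. Of the 45 above background on both arrays 39 lay above 0, and the other 6 measured genes passed on the nilotinibR array only, which favours that sign. With all 70 clustered genes and no filter on dim probes the median was 0.25, with 54 above 0 and the same counts of 18 and 0 at 1.5-fold. Each of the 18 was above background on both arrays.

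**Figure D1:**
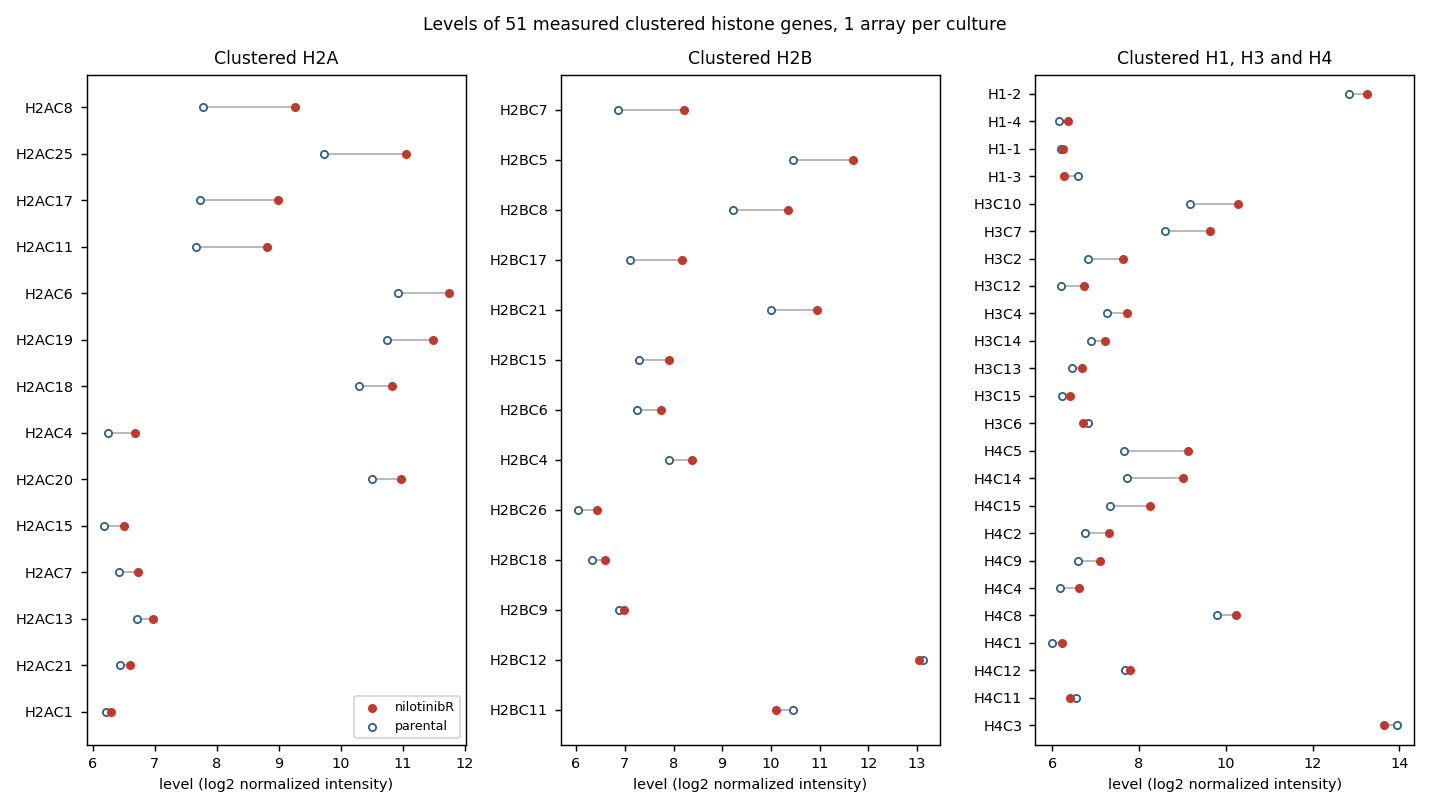
Log2 normalized level of each measured clustered histone gene (x axis) in nilotinibR (filled red) and parental cells (open blue), 1 array each, sorted by difference within each histone type. H2AC8 and H4C5 have the widest gaps, at 1.48 and 1.47, while H2BC11, H1-3 and H4C3 lie lower in nilotinibR cells.

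The variant genes had a median near 0, at 0.03 over the 12 measured. Only H2AJ exceeded 1.5-fold, upward, a share of 8.33% that is close to the 7.68% of all genes measured. The 10 above background on both arrays ranged from -0.28 to 0.70, with a median of 0.07. For the 7 measured variants of the rule alone the median was -0.03, and none passed 1.5-fold in either direction. The genes are few, and no test of clustered against variant genes was run.

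Few dim genes of either kind passed 1.5-fold. The measured clustered genes were divided at their median mean level over both arrays, 7.54 on the log2 scale. In the brighter 26, 17 (65.4%) were at least 1.5-fold higher and the median was 0.94, whereas 14% of the 5209 genes of the array at that brightness were. In the dimmer 25, 1 gene, H3C2, was at least 1.5-fold higher (4%), against 3.45% of the 7742 genes as dim, though their median was 0.28. The division uses the mean of both arrays, which a higher nilotinibR level raises.

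**Figure D2:**
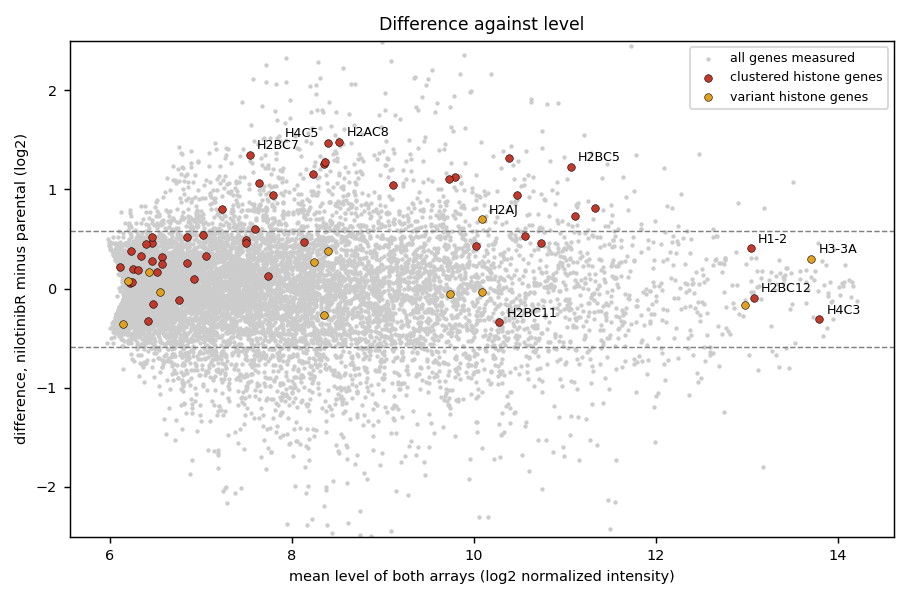
Difference between nilotinibR and parental cells (y axis, log2) against the mean level of both arrays (x axis, log2 normalized intensity) for all genes measured (grey), clustered (red) and variant (yellow) histone genes; dashed lines mark 1.5-fold, and 25 genes lie beyond the axis. Of the 26 brighter clustered genes 17 lie above the upper line, and H2BC11, H2BC12 and H4C3 lie below 0.

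Histone H2A pairs with H2B in the nucleosome. Of 14 clustered H2A genes measured, 6 were at least 1.5-fold higher, with a median of 0.49. H2AC8 had a deposited intensity of 649 in nilotinibR and 267 in parental cells, and its log2 level was 9.26 in nilotinibR against 7.78 in parental cells, a 2.79-fold higher level. H2AC25, the H2A gene of the HIST3 cluster, had 2114 in nilotinibR and 912 in parental cells, a log2 difference of 1.32. H2AC17 had 544 in nilotinibR and 259 in parental cells and was 2.39-fold higher. In all of these the nilotinibR array carried more than double the deposited signal.

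H2AC11 was read by a pair of probes, of which 1 was dim on both arrays, at 117 in nilotinibR and 113 in parental cells. The measured probe had 488 in nilotinibR and 248 in parental cells, which gave 2.23-fold, and the mean of both probes had a log2 difference of 0.64. H2AC6, at 3402 in nilotinibR and 2045 in parental cells, was 1.75-fold higher. H2AC19, in the HIST2 cluster, had 2802 in nilotinibR and 1819 in parental cells and was 1.66-fold higher. Its copy H2AC18 has an upstream sequence that matches it at 249 of 250 bases. The H2AC18 probes gave log2 differences of 0.76 and 0.29, a mean of 0.53 that fell short of 1.5-fold. Probe sequences were not compared, so signal shared between these copies is possible and was not tested.

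The other 7 H2A genes lay between 0.07 for H2AC1, a gene known from testis, and 0.46 for H2AC4 and H2AC20. H2AC20 was bright, at 2009 in nilotinibR and 1544 in parental cells, and was 1.37-fold higher. H2AC15, at 0.33, was above background in nilotinibR cells only. H2AC12, H2AC14 and H2AC16 were dim on both arrays, with probe differences of -0.09, -0.33 and 0.03.

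Of 13 clustered H2B genes measured, 6 were at least 1.5-fold higher, with a median of 0.49, but this type also held the lowest value of any clustered gene. H2BC7 had 341.5 in nilotinibR and 162 in parental cells and was 2.55-fold higher. H2BC5 was measured by 2 probes, at 4291 and 2449 in nilotinibR cells and 1857 and 1171 in parental cells, with log2 differences of 1.29 and 1.18 and a 2.35-fold higher mean. Another H2BC5 probe was dim on both arrays. H2BC8, with 1330 in nilotinibR and 655 in parental cells, was 2.18-fold higher.

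H2BC17 had 335 in nilotinibR and 184 in parental cells and was 2.10-fold higher. H2BC21 (HIST2H2BE) had 1961 in nilotinibR and 1084 in parental cells and was 1.92-fold higher. H2BC15 was just past the threshold at 1.52-fold, from 284 in nilotinibR and 204 in parental cells, and its log2 difference was 0.48, under the threshold, both in the deposited values and when background was left in, and 0.57, also under it, with 75th percentile scaling. Just under the threshold lay H2BC6 at 1.40-fold and H2BC4 at 1.39-fold. H2BC12 (HIST1H2BK) differed little. Its probes had 12806 and 5749 in nilotinibR cells and 12685 and 5972 in parental cells, with log2 differences of -0.10 and -0.08. The first probe had slightly more deposited signal in nilotinibR cells, so its sign comes from the normalization. In the deposited values the H2BC12 difference was -0.02. H2BC11 (HIST1H2BJ) was lower at 1125 in nilotinibR against 1477 in parental cells, a log2 difference of -0.34.

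Sequence upstream of the start, from the RefSeq table of GRCh38.p14, was found for all 18 clustered H2B genes, and was searched on both strands over 250 bases. The octamer ATTTGCAT, the site of OCT1 in H2B promoters, stood in 14 of the 18 (77.8%), against 1.66% of 27305 promoters. It also stood in 11 of 16 clustered H2A genes, 1 of 12 H3 and 0 of 6 H1 genes with sequence. Many H2A and H2B genes start back to back, 194 to 248 bases apart, so 1 site can count for both. The octamer at -197 of H2AC20, on the opposite strand, is the one at -46 of H2BC21. The H3 gene with an octamer, H3C4, has the same 120 bases before its start as H2AC7. Octamers of H2A genes apart from those of H2B partners were not counted. CCAAT was found in all 18 H2B genes, against 33% of promoters, and the TATA box letters TATAAA in 12 (66.7%), against 11.1%. CCAAT and TATAAA were also found in other types, and the overlap of windows holds for them too. CCAAT stood in all 16 H2A, 12 H3 and 6 H1 genes and in 3 of 13 H4 genes. TATAAA stood in 12 of 16 H2A, 9 of 12 H3, 3 of 6 H1 and 7 of 13 H4 genes. Hits anywhere in the 250 bases were counted, so some lie far from the start, as at -189 in H2BC6. In H2BC4 the only TATAAA was at -220 on the opposite strand. H2BC8, H2BC21 and H2BC5, which were higher in nilotinibR cells, are shown beside H2BC11 and H2BC12, which were not, as the 120 bases before the start, 5′ to 3′. Capitals mark the octamer, the CCAAT box, the TATA letters and the H4 element GGTCCG, each on either strand.
H2BC8, chr6:26216689-26216808, minus strand: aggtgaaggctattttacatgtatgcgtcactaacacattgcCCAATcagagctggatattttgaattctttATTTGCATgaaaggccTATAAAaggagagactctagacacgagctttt
H2BC21, chr1:149886683-149886802, minus strand: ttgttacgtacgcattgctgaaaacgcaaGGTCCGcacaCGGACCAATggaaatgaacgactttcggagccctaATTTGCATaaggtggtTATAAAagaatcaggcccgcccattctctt
H2BC5, chr6:26158001-26158120, plus strand: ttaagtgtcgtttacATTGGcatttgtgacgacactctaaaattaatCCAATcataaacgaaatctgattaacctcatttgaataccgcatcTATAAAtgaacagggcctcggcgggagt
H2BC11, chr6:27132796-27132915, minus strand: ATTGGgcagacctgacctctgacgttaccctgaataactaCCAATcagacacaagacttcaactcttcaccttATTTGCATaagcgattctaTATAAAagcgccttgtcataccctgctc
H2BC12, chr6:27146859-27146978, minus strand: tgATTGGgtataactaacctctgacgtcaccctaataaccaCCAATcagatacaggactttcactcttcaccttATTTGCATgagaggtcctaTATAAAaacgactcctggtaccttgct
In H2BC8, H2BC21, H2BC11 and H2BC12 the octamer began at -48, -46, -47 and -46, counted from -1 at the base before the start, and H2BC5 had no exact octamer in 250 bases. H2BC11 and H2BC12 matched each other at 203 of 250 bases and held all 3 of the octamer, CCAAT and TATAAA, as did H2BC8 and H2BC21. Among measured H2B genes, 4 of the 10 with an octamer and 2 of the 3 without one were at least 1.5-fold higher. A match to these letters is a description of the sequence and not of factor binding.

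Most H2A and H2B genes lie in divergent pairs that start from one shared promoter region. RefSeq gave 11 such pairs with starts 194 to 248 bases apart, and both genes were measured in 8. In 6 of the 8 both genes were above background on both arrays, and in 5 of those 6 both differences were above 0. H2AC15 and H2BC26, in the other pairs, were above background in nilotinibR cells only. In 2 pairs, H2AC8 with H2BC8 and H2AC17 with H2BC17, both genes were at least 1.5-fold higher. The log2 differences were 1.48 for H2AC8 and 1.13 for H2BC8, and 1.26 for H2AC17 and 1.07 for H2BC17. Taken singly, 42.9% of measured clustered H2A and 46.2% of H2B genes were at least 1.5-fold higher. Of the 45 clustered genes above background on both arrays 39 lay above 0. Whether partners agree more than unpaired genes was not tested. Other partners were far apart. H2AC11 was at 1.16 and H2BC11 at -0.34, although 248 bases separate their starts. H2AC7 was at 0.32 and H2BC7 at 1.35. H2AC25 was at 1.32, but its partner H2BC26 has only a bound, at least 1.16-fold higher, so their gap was not measured.

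**Figure D3:**
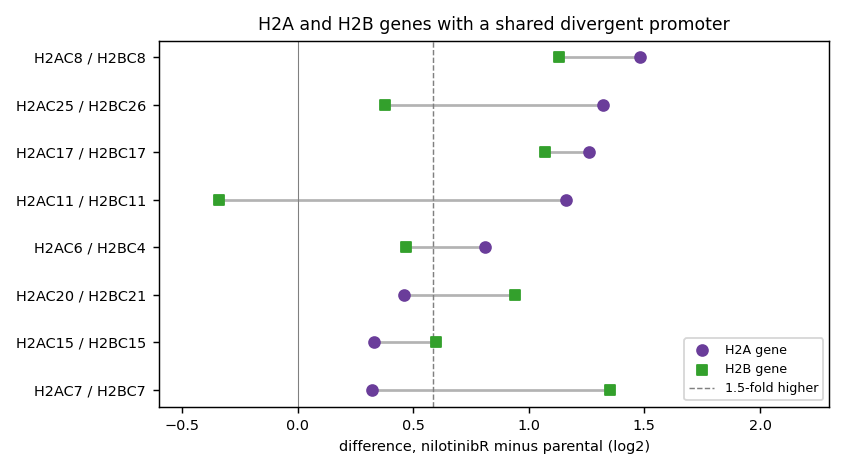
Difference between nilotinibR and parental cells (x axis, log2) for the H2A gene (purple circle) and the H2B gene (green square) of 8 divergent pairs, with a dashed line at 1.5-fold higher. The H2AC11 and H2BC11 values, 1.16 and -0.34, lie farthest apart, and the points of H2AC15 and H2BC26 rest on a parental value at background.

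H3 and H4 form the core tetramer of the nucleosome. Of 9 clustered H3 genes measured, 3 were at least 1.5-fold higher, with a median of 0.46. H3C10 had 1271 in nilotinibR and 631 in parental cells and was 2.17-fold higher. H3C7 had 830 in nilotinibR and 437 in parental cells and was 2.08-fold higher, and H3C2, at 245 in nilotinibR and 160 in parental cells, was 1.74-fold higher. H3C6, the lowest, had 152 in nilotinibR and 159 in parental cells, a log2 difference of -0.11. The HIST2 genes H3C13, H3C14 and H3C15 lay between 0.19 and 0.33, and the 3 probes of H3C13 between 0.19 and 0.32.

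Of 11 clustered H4 genes measured, 3 were at least 1.5-fold higher, with a median of 0.45. H4C5 had 598 in nilotinibR and 249 in parental cells and was 2.77-fold higher. H4C14 had 550 in nilotinibR and 258 in parental cells and was 2.44-fold higher. H4C15 had 351 in nilotinibR and 207 in parental cells and was 1.92-fold higher. H4C14 and H4C15 were identical over all 250 bases upstream of the start, and whether the probes separate these copies was not tested. H4C3, which lies near the top of the range, was lower in nilotinibR cells, with 13372 against 15000 in parental cells, a log2 difference of -0.31. In the deposited values its difference was -0.17. H4C8 was bright as well, at 1229 in nilotinibR and 957 in parental cells, and was 1.35-fold higher.

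H4 promoters are known for site II, the element bound by HINFP, whose core is GGTCCG. This core was found within 250 bases before the start in 12 of 13 H4 genes with sequence (92.3%), against 9.33% of all promoters, and in 0 of 6 H1, 1 of 16 H2A, 1 of 18 H2B and 1 of 12 H3 genes. The H2A and H2B genes, H2AC20 and H2BC21, are back to back and share the same sites. The octamer was found in none of the 13 H4 genes. H4C5 and H4C14, higher in nilotinibR cells, are shown beside H4C8 and H4C12, which did not pass 1.5-fold, with capitals as above.
H4C5, chr6:26204490-26204609, plus strand: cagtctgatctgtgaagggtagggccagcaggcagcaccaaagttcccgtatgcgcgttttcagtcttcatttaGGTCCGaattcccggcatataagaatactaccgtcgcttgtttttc
H4C14, chr1:149832537-149832656, plus strand: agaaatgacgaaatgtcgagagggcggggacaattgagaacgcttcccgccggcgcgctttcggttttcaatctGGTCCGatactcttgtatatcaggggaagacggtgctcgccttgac
H4C8, chr6:26285535-26285654, minus strand: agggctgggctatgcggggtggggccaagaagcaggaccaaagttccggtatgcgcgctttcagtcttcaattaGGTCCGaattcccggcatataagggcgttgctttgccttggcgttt
H4C12, chr6:27831561-27831680, minus strand: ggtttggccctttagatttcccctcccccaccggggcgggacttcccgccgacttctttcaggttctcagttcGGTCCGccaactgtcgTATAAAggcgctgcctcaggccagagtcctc
All 9 measured H4 genes with sequence held the core, and their differences ranged from -0.15 to 1.47. H4C12 was at 0.13, and H4C11, whose upstream sequence matches it at 245 of 250 bases, was at -0.15.

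Linker histones bind the DNA between nucleosomes. Of 4 measured H1 genes none passed 1.5-fold, with a median of 0.13. H1-2 was the only bright one, at 10119 in nilotinibR and 7135 in parental cells, and was 1.33-fold higher. H1-3 was dim and lower, at 123 in nilotinibR and 143 in parental cells, a log2 difference of -0.33. H1-1 and H1-4 were above the dim probes in nilotinibR cells only, at 122.2 and 128.2 there against 120.5 and 118.7 in parental cells.

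By genome location, 13 of the 38 measured genes on chromosome 6, the HIST1 cluster, were at least 1.5-fold higher, and 5 of the 13 on chromosome 1, which holds HIST2 and HIST3. Both had a median of 0.46. H4C16, the HIST4 gene on chromosome 12, was dim on both arrays. Genes above the dim probes on 1 array only, H1-1, H1-4, H2AC15, H2BC26, H4C1 and H4C4, all on the nilotinibR array, allow bounds of at least 1.02-fold to at least 1.34-fold higher, and with them at their bound the clustered median was again 0.46. The 19 clustered genes not measured were H1-5 and H1-6, 3 H2A, 5 H2B, 5 H3 and 4 H4 genes.

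**Figure D4:**
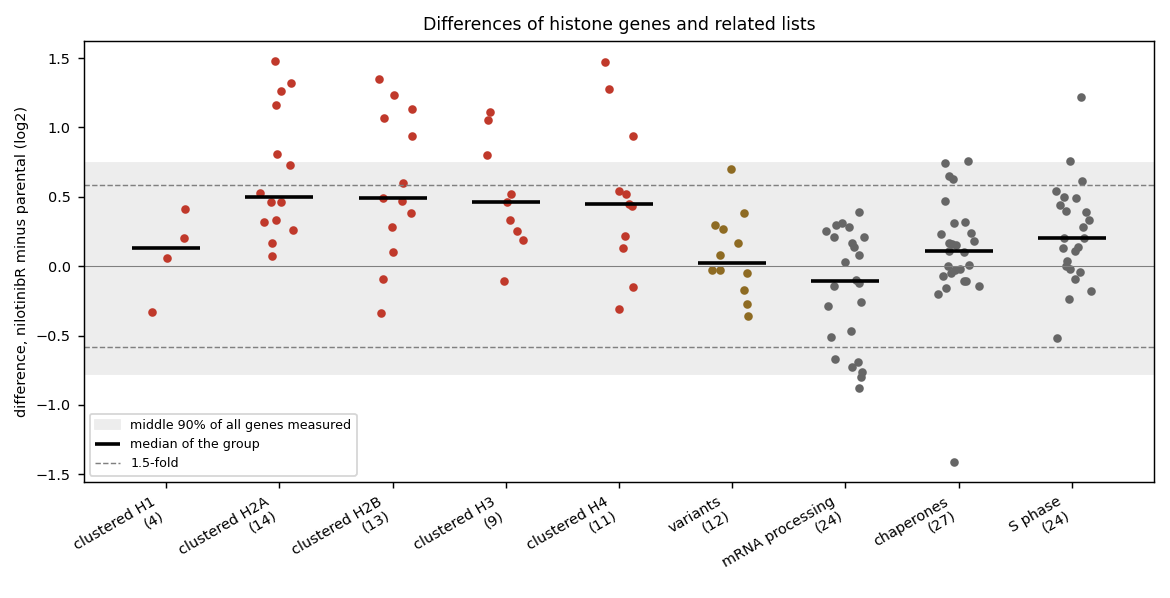
Difference between nilotinibR and parental cells (y axis, log2) of each measured gene (points) by group, with the number of genes in brackets, the group median (bar), 1.5-fold (dashed) and the span from the 5th to the 95th percentile of all genes measured (grey, -0.78 to 0.74). The medians of the 4 core histone types lie between 0.45 and 0.49, and that of clustered H1 at 0.13. Those of variants, mRNA processing factors, chaperones and S phase genes lie at 0.03, -0.11, 0.11 and 0.20.

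Some clustered genes are known in human cells to give polyadenylated transcripts beside the stem-loop form. Of H1-2, H2AC6, H2BC5, H2BC12 and H2BC21, 3 (60%) were at least 1.5-fold higher, with a median of 0.81. All of them belong to the brighter 26 clustered genes, of which 65.4% were higher with a median of 0.94. They count among these 26 themselves, so the shares overlap, and whether polyadenylation has a part in the values was not tested. Over all genes measured the share at least 1.5-fold higher was 7.68%. The values of the polyadenylated genes were spread, since H2BC5 was at 1.23 and H2BC12 at -0.09.

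Among variants, H2AJ, an H2A variant known from senescent and secretory cells, was the only one past 1.5-fold. It had 1406 in nilotinibR and 921 in parental cells, and its log2 level was 10.44 in nilotinibR against 9.74 in parental cells, which is 1.62-fold higher.

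H3.3 is encoded by H3-3A and H3-3B. The 3 H3-3A probes had 17854, 13867 and 15389 in nilotinibR cells and 12891, 10827 and 11383 in parental cells, with log2 differences of 0.35, 0.26 and 0.30, a 1.23-fold higher mean. H3-3B, which encodes the same protein, had 870 in nilotinibR and 933 in parental cells, at -0.05. H3-5, a primate-specific H3 variant gene copied from H3-3B mRNA, had 1440 in nilotinibR and 1820 in parental cells on its bright probe, at -0.28. Its other probe was near background, at 107.7 in nilotinibR and 121.7 in parental cells. Probe sequences were not compared, so whether the bright probe separates H3-5 from H3-3B was not tested.

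H2AZ1, the main H2A.Z gene, had 7788 in nilotinibR and 8304 in parental cells, at -0.17, and H2AZ2 had 140 in nilotinibR and 141 in parental cells, at -0.03. H2AX, whose phosphorylated form marks DNA breaks, was 1.20-fold higher, and H1-10, a linker variant, was 1.30-fold higher with 427 in nilotinibR and 346 in parental cells. The MACROH2A1 probes disagreed. They had 550, 523 and 4982 in nilotinibR cells and 345, 746 and 6294 in parental cells, with log2 differences of 0.80, -0.50 and -0.37, so its mean of -0.03 describes no probe. MACROH2A2 was at 0.17. H1-7 and H2AB1 were each above the dim probes on 1 array only, and H1-8, H2AB2 and H2AB3, known from germ cells, on neither.

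**Figure D5:**
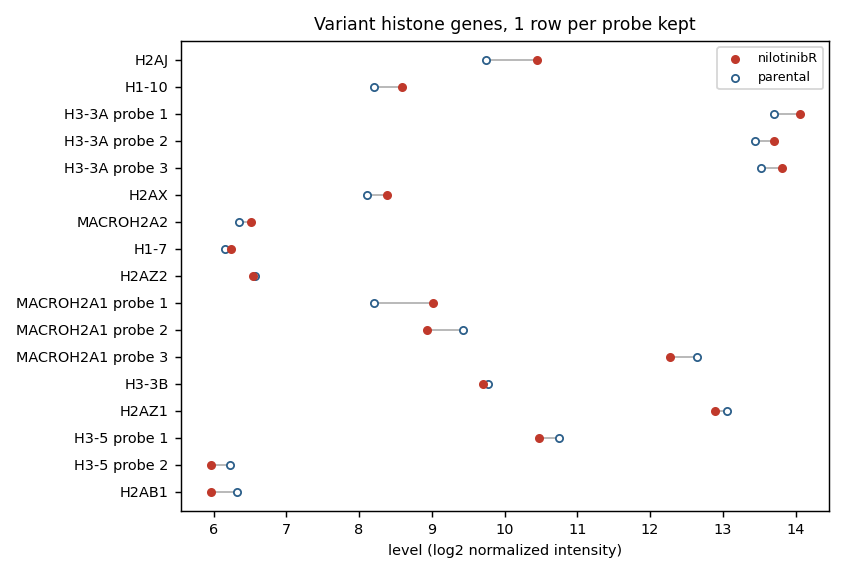
Log2 normalized level (x axis) of 17 kept probes of 12 variant histone genes in nilotinibR (filled red) and parental cells (open blue), 1 array each. H2AJ has a gap of 0.70, the 3 H3-3A probes agree in direction, and the MACROH2A1 probes do not.

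Among factors that transcribe and process histone mRNA, 24 of 30 listed symbols were measured, and of the symbols MIZF and SLIP1 are older names of HINFP and MIF4GD. None was at least 1.5-fold higher and 6 were at least 1.5-fold lower, with a median of -0.11, where 8.37% of all genes were lower and 7.68% higher. All 6 had a mean level above 7.54. Of the 5209 genes of the array at that brightness, 773 were lower and 727 higher. SLBP was at 9.38 in nilotinibR and 9.21 in parental cells, a log2 difference of 0.17. NPAT, the coactivator of histone gene transcription, was at 0.25 and HINFP at 0.03. The 6 lower genes were ZPR1 (1.84-fold), the U7 snRNP gene LSM10 (1.74-fold), SNRPB (1.69-fold), SNRPF (1.66-fold), DHX9 (1.61-fold) and SNRPG (1.59-fold). The SNRP genes encode Sm proteins, which also serve the spliceosome, so they are not particular to histone mRNA. LSM11 was above the dim probes in nilotinibR cells only, at 0.31.

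Of 27 measured of 30 listed histone chaperones, 4 (14.8%) were at least 1.5-fold higher and 1 lower, with a median of 0.11, against 7.68% higher and 8.37% lower of all genes. Most of these chaperones had a mean level above 7.54, where 14% of the 5209 genes of the array were higher. With median or 75th percentile scaling, or in the deposited values, 2 were higher. The higher ones were MCM2, a helicase subunit that binds H3-H4, at 1.69-fold, CHAF1A, the large subunit of CAF-1, at 1.67-fold, DNAJC9 at 1.57-fold and ASF1B at 1.55-fold. CHAF1B was at 0.31 and NASP, a chaperone of the soluble H3-H4 pool, at -0.11. IPO4, which imports H3-H4 into the nucleus, was 2.67-fold lower. HIRA and DAXX, which deposit H3.3, were at -0.07 and -0.20.

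Clustered histone mRNA follows S phase, so replication and division genes are given beside it. Of 24 measured of 26 listed, 3 (12.5%) were at least 1.5-fold higher and none lower, with a median of 0.20, against 7.68% higher of all genes. Most of these genes also had a mean level above 7.54, where the share higher was 14% of 5209 genes. With median or 75th percentile scaling 2 were higher and 1 lower. The higher ones were CDT1 at 2.32-fold, MCM2 at 1.69-fold and TK1 at 1.53-fold. PCNA was at -0.09, RRM2 at 0.20 and MKI67 at 0.50, while the mitotic gene BUB1 was at -0.52. Differences above 0 were seen in 18 of the 24 (75%), against 49.7% of all genes measured. MCM2, CCNE1, CCNE2 and CDK2 stand on more than 1 of these lists. Whether the share of cells in S phase has a part in the histone values was not tested.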

How the data were processed

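Total RNA of 1 nilotinibR and 1 parental K562 culture was labelled with the Illumina TotalPrep kit and scanned on 1 HumanHT-12v4 array each. The authors processed the scans in GenomeStudio, named robust multichip average for normalization, and deposited probe intensities on a linear scale. Which of these steps lie behind the intensities is not stated in those sources. Another 2 signal columns carry names that fit no label, and were left out. The intensities were corrected by normexp (offset 50) and quantile normalized in limma 3.58.1 under R 4.3.3, then converted to log2 values. Probes above the level that 5% of the dim background would exceed on at least 1 array were kept (24962 of 47323), and those of a gene were averaged. Of the probes, 30113 had 1 symbol, 8 several and 17202 none. Symbols were updated through RefSeq, which held 30074 of them. Precision is limited by the number of arrays, and no test was run across genes. The steps were tested on simulated data. The members and lists were chosen with earlier results of these data known. Named were all measured members past 1.5-fold, the variants, the extremes of each type, and fixed and leading genes of each list. HINFP, LSM11, SNRPG, HIRA and DAXX were added after their values were seen.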

Additional observations from a re-analysis of the deposited data

How the results depend on the processing

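No paired analysis was possible because each group has 1 array, and no replicate could be left out. Of 204 values of the comparisons under an alternative, 191 stayed within the limits used, and no result changed sign at 1.5-fold. The limits were 1.5 times for a count and 0.20 for a median. The 0.20 is a robust log2 SD of the difference of 1 probe, estimated from pairs of probes to one gene. Over all alternatives 16 to 25 clustered genes were at least 1.5-fold higher and none lower. With an offset of 16, 1567 of all genes were higher and 1651 lower, the clustered H4 median was 0.73, and 1 variant gene, H2AB1, was counted as lower, although it was at background on the nilotinibR array and has only a bound. With median scaling, 75th percentile scaling or the deposited values, 2 chaperones were higher in each, and with median or 75th percentile scaling 1 S phase gene was lower in each. Without a filter the medians were 0.25 for clustered genes, 0.27 for H2B, 0.22 for H3 and 0.22 for H4. Leaving out gene copies and the added variant genes were alternatives chosen after seeing the data, and gave 16 clustered genes higher and a variant median of -0.03.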
